A study of Mus musculus with 60 samples.

Results

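The islet hormone and peptide genes Ins2, Iapp, Gcg, Sst, Ppy, Pyy, Ucn3 and Ghrl were followed in islets of pIns-MYCERTAM mice. Each gene was taken from the probe sets whose only annotated symbol was that gene, and all 8 of the 8 members were found among 18193 named genes. All 8 were among the 13176 genes tested, which had passed a filter on spread over the arrays. Their transgene, under an insulin promoter and hence on in beta cells, encodes MYC joined to a mutant oestrogen receptor domain and is inactive until 4-hydroxytamoxifen binds it. MycON mice were injected intraperitoneally each day with 4-hydroxytamoxifen (1 mg), whereas MycOFF mice, which carried the same transgene, received peanut oil. Within each MYC state some mice had subcutaneous exendin-4, a GLP-1 receptor agonist (50 µg/kg), and others water, starting 2 days before MYC was switched on. The animals were male CBA-C57BL/6 mice of 8 to 12 weeks by one label and of an age in months by another, a difference that was not resolved. Islets were cut by laser from pancreas sections of 15 µm at 4, 8, 16, 32 or 72 h.

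Of 60 Affymetrix arrays the submitters kept 52, which were analysed here. They comprised 12 MycON exendin-4, 13 MycON water, 15 MycOFF exendin-4 and 12 MycOFF water arrays, with 2 or 3 arrays in each of 20 groups. No array came from animals without the transgene that had the drug, so an effect of 4-hydroxytamoxifen and one of MYC cannot be told apart. The arrays were called biological replicates but were not tied to named animals, so p-values measure the spread between these arrays. Each value is the log2 distance of an array from the median of the same probe set over all 60 arrays. Values of a gene can thus be compared between arrays, whereas levels of different genes cannot be compared, and the islet label could not be checked against absolute marker levels. Since islets are mixtures of cells, fewer cells of a type and less RNA per cell cannot be told apart. The activity of the fusion protein itself was not measured on the arrays. The median log2 difference of all genes tested was -0.11 for exendin-4 in MycON islets at 4 h and between -0.10 and 0.09 in the other comparisons.

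Islet hormones are made as larger precursors, cut by convertases inside secretory granules and released when blood glucose or nutrients change. Beta cells release insulin and, from the same granules, islet amyloid polypeptide (encoded by Iapp), which slows gastric emptying and restrains glucagon. Alpha cells make glucagon from Gcg, delta cells make somatostatin from Sst, which inhibits both neighbours, and PP cells make pancreatic polypeptide from Ppy. In the adult mouse islet Ucn3 is made by beta cells, and its product urocortin 3 acts on the receptor Crhr2 of delta cells and promotes somatostatin release.

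The promoters of 3 members are given here because Ucn3 was the member that differed between MYC states, Sst was the member that followed Ucn3 most closely in MycOFF islets, and Gcg was the member that changed with time in MycON islets. RefSeq promoter entries (GRCm38.p6) existed for 7 of the 8 members; Ins2 had no entry. The 250 bases before the annotated start are shown 5′ to 3′ on the strand of the gene, which was the minus strand in each case. In Ucn3 (chr13:3945350-3945599) and Gcg (chr2:62483654-62483903) capitals mark each CANNTG, the general E-box, and in Sst (chr16:23890845-23891094) they mark TGACG on either strand, the repeated core of the cyclic AMP response element.
Ucn3: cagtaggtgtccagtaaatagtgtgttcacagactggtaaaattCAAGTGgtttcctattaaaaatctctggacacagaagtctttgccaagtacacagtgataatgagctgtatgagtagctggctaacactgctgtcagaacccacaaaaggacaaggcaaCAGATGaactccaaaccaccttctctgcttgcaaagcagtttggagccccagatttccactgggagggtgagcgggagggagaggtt
Sst: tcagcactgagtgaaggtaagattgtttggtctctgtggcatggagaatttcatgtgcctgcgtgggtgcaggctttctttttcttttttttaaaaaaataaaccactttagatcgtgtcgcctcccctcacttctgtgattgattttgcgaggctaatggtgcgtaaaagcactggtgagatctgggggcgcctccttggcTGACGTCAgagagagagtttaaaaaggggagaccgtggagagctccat
Gcg: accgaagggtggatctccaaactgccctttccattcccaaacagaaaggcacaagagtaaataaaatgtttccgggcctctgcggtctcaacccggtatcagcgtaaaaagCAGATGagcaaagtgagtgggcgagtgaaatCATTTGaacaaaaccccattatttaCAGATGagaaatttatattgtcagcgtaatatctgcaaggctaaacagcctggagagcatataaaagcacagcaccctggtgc

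The motifs were searched on both strands. CACGTG, the E-box that MYC with its partner MAX is known to bind, was in no promoter entry of the 7 members and in 6.02% of 32851 mouse promoters of the same length. CANNTG, which includes CACGTG, was found 2 times in the Ucn3 window, 206 and 87 bases before the start, 3 times in that of Gcg and 1 time in that of Sst, and 66.2% of all promoters hold it. TGACG was found 2 times in the Sst window as overlapping matches on the 2 strands, starting 48 and 45 bases before the start, and in no window of the other members. Of all promoters 17.8% hold TGACG. TAAT, the core of many homeodomain sites, was in the windows of Ucn3, Sst, Gcg and Iapp and in 54.9% of all promoters. These matches describe letters in a window and not bound sites.

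Ucn3 fell with MYC activation, and it was the only member that did so past the threshold (limma, Benjamini-Hochberg adjusted p under 0.05 over all genes tested). At 4 h its values were -0.70 and 1.00 in MycON exendin-4, and -0.76, -0.73 and 2.49 in MycON water, against 0.02, 1.27 and 1.60 in MycOFF exendin-4 and 1.28, 0.43 and 3.08 in MycOFF water. At 8 h they were -0.38, -0.70 and -0.30 in MycON exendin-4, and -0.01, -0.46 and -0.19 in MycON water, against 1.61, 0.66 and 1.42 in MycOFF exendin-4 and 1.67 and 2.91 in MycOFF water. At 4 h the MYC states overlapped, with 1 MycON water array among the highest and 1 MycOFF exendin-4 array near 0, whereas at 8 h every MycON array was below every MycOFF array. Of all genes tested, 3.93% were called for MYC at 8 h with both injections averaged, and Ucn3 was not among them. The share of all genes whose arrays were apart in this way was not counted.

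At 16 h Ucn3 was at 0.01 and 0.07 in MycON exendin-4, and at -0.88 and 0.53 in MycON water, against 0.40, 2.87 and -0.71 in MycOFF exendin-4 and -0.09 and 0.54 in MycOFF water. At 32 h it was at 0.57 and -0.47 in MycON exendin-4, and at 1.37 and -1.67 in MycON water, against -0.80, 1.34 and 1.67 in MycOFF exendin-4 and 1.34, -0.03 and 3.09 in MycOFF water. The states overlapped at both of these times. At 72 h it was at -1.23, -0.68 and -1.29 in MycON exendin-4, and at -1.08, -1.35 and 0.08 in MycON water, against 1.34, 0.60 and 3.35 in MycOFF exendin-4 and 3.04 and -0.30 in MycOFF water. At 72 h the exendin-4 groups were apart and the water groups overlapped. The exendin-4 comparison called 1% of all genes, and Ucn3 was not among them. The share of all genes whose groups were apart was not counted.

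**Figure D1:**
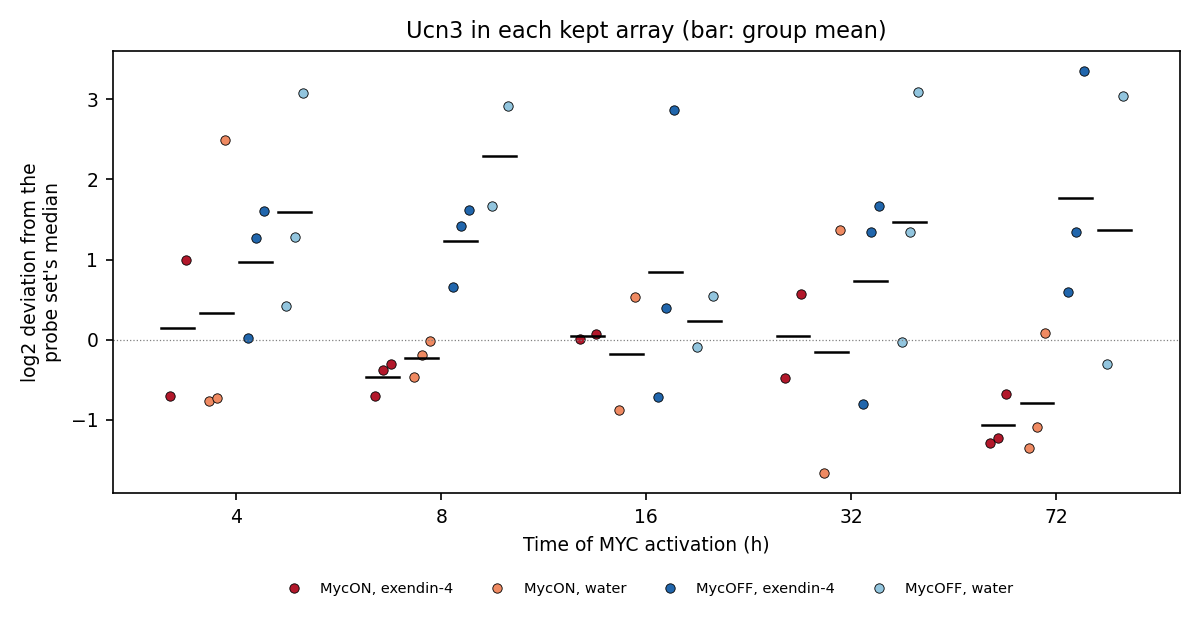
Ucn3 in each of the 52 kept arrays, as log2 deviation from the median of its probe set (vertical axis), against the time of MYC activation in hours; points are arrays, coloured by treatment, and bars are group means. At 8 h the MycON arrays lie between -0.70 and -0.01 and all MycOFF arrays lie at 0.66 or above, while the states overlap at 4, 16 and 32 h.

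The MycON group mean of Ucn3 was below the MycOFF group mean in 10 of 10 pairs of injection and time. The share of all genes with 10 of 10 pairs in the same direction was not counted. Averaged over the 5 times and both injections, Ucn3 was lower in MycON islets by a log2 difference of -1.48 ± 0.33 (SE; 95% interval -2.15 to -0.80), which is 0.359 times the MycOFF level (adjusted p = 0.00169, limma). This comparison called 15.4% of all genes tested, and 1 of the 8 members. With exendin-4 alone the log2 difference was -1.37 ± 0.46 and missed the threshold (adjusted p = 0.0727), with 5.79% of all genes and 0 of 8 members called. With water alone it was -1.59 ± 0.48 (adjusted p = 0.0423), with 5.59% of all genes and 1 of 8 members called. The MYC effects under exendin-4 and water did not differ past the threshold (interaction 0.22 ± 0.66, 95% interval -1.13 to 1.57, adjusted p = 1.00).

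The result over both injections kept its call under every alternative and without any 1 array, with adjusted p-values of at most 0.0156. The result with water lost it with the replicate number as a block (-1.54, adjusted p = 0.0545), with only the arrays compared (-1.59, adjusted p = 0.0889), without the filter on spread (-1.59, adjusted p = 0.0635) and with all 60 arrays (-1.08, adjusted p = 0.474). It also lost it without 17 of the 52 arrays in turn, with adjusted p-values between 0.0511 and 0.156. These were, in MycON water, replicates 1 and 2 at 4 h, replicates 1, 2 and 3 at 8 h, replicate 1 at 16 h, replicate 3 at 32 h and replicates 1 and 2 at 72 h. In MycOFF water they were replicates 1 and 3 at 4 h, replicate 3 at 8 h, replicates 2 and 3 at 16 h, replicates 1 and 3 at 32 h and replicate 1 at 72 h. The result with exendin-4 gained a call without MycOFF exendin-4 replicate 3 at 16 h (-1.52, adjusted p = 0.0453) or replicate 1 at 32 h (-1.52, adjusted p = 0.0497).

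By time, with both injections averaged, the MYC difference of Ucn3 was -1.04 at 4 h, -2.10 at 8 h, -0.60 at 16 h, -1.15 at 32 h and -2.49 at 72 h, each with an SE between 0.72 and 0.80. None passed the threshold, the nearest being 72 h (adjusted p = 0.0815) and 8 h (adjusted p = 0.105). A change of the MYC effect between times was not called (adjusted p = 0.765, limma F test). Over the 4 treatments the medians of Ucn3 were -0.43 in MycON exendin-4 (lowest -1.29, highest 1.00) and -0.46 in MycON water (-1.67 to 2.49), against 1.34 in MycOFF exendin-4 (-0.80 to 3.35) and 1.31 in MycOFF water (-0.30 to 3.09). The treatments that share a MYC state were next to each other in this order and did not differ past the threshold, with an exendin-4 minus water difference of -0.06 ± 0.48 in MycON islets and -0.28 ± 0.46 in MycOFF islets.

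Ucn3 varied with markers of its own cell type. Across the 52 arrays it correlated with the mean of 7 tested beta cell markers (Pearson's r = 0.75, Spearman's rho = 0.71, adjusted permutation p = 0.00016 for each over 64 relations of members with marker lists). The unadjusted p of 1e-05 for each is the smallest that 100000 permutations can give. The coefficient was 0.56 within the 25 MycON arrays and 0.79 within the 27 MycOFF arrays, and 0.72 without the 2 arrays farthest from the median. For deviations from the group means, that is, between arrays of the same treatment and time, it was 0.74. The other beta cell hormone genes followed this mean less closely. Ins2 correlated with it at r = 0.23 (adjusted permutation p = 0.174) and Iapp at r = 0.36 (adjusted permutation p = 0.0261). The marker mean ranged from -1.12 to 1.06 in MycON arrays (median -0.03) and from -1.24 to 1.36 in MycOFF arrays (median 0.45). Of the 7 markers, 2 fell with MYC over both injections: Pdx1, a transcription factor of beta cells (-0.60 ± 0.13, adjusted p = 0.0016, limma), and Slc2a2, the glucose transporter GLUT2 (-0.59 ± 0.16, adjusted p = 0.0111). That comparison called 15.4% of all genes, and the list median was -0.39, against -0.03 for all genes. Slc2a2 was also lower with exendin-4 over both MYC states (-0.67 ± 0.16, adjusted p = 0.0301, limma), where 1.32% of all genes were called. The part of this list in the fall of Ucn3 was not tested. The genes with the pattern most like Ucn3 over the 52 arrays were Scnn1b, a subunit of the epithelial sodium channel (r = 0.81), and Mgrn1, a ubiquitin ligase (r = 0.79).

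**Figure D2:**
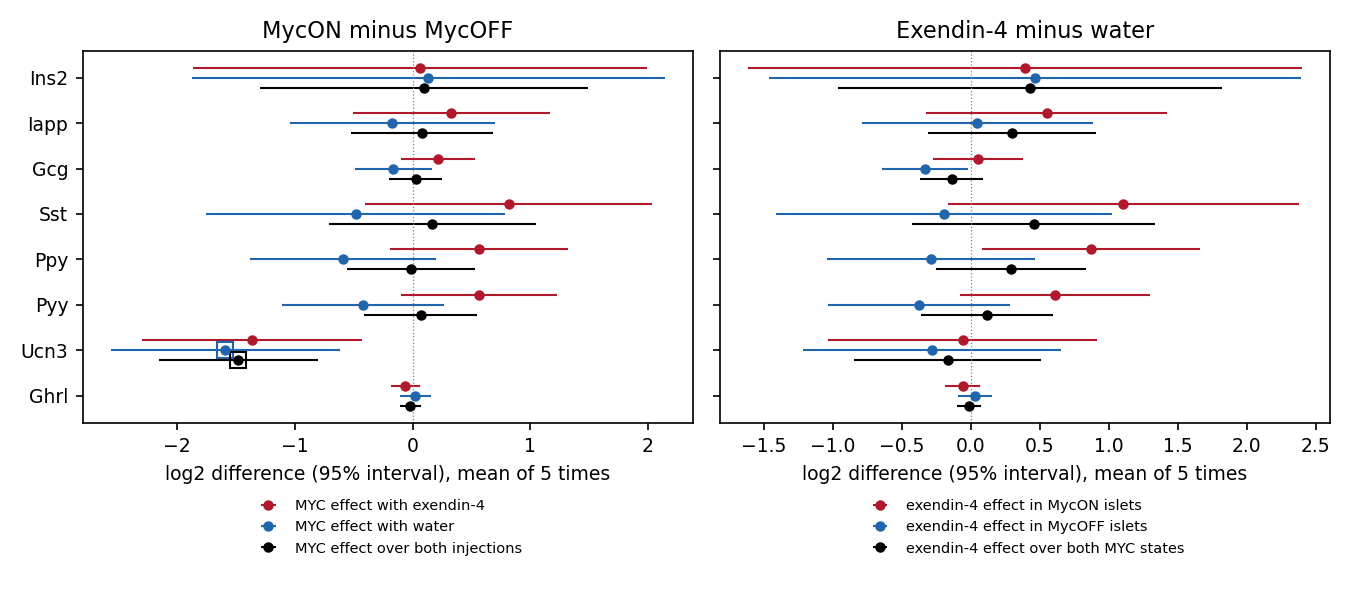
Log2 differences of the 8 members, averaged over 5 times, with 95% intervals from limma; left, MycON minus MycOFF, and right, exendin-4 minus water, with the 2 separate strata and their mean in different colours. Squares mark the differences past the threshold, which are those of Ucn3 for MYC with water and over both injections; the intervals of Ins2 span about 4 log2 units within an injection, from -1.87 to 2.14 with water.

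The beta cell hormone Ins2 did not differ past the threshold in any comparison, and its intervals were wide. MYC shifted it by 0.10 ± 0.69 over both injections (95% interval -1.29 to 1.49, adjusted p = 0.938) and exendin-4 by 0.43 ± 0.69 over both states (95% interval -0.96 to 1.82, adjusted p = 0.809). In MycON arrays Ins2 ran from -6.01 to 0.93 with a median of 0.19, and in MycOFF arrays from -7.15 to 0.95 with a median of 0.25. The medians were thus close and both tails were long on the low side. The only Ins2 probe set, 1422446_x_at, carries the array maker's suffix for probes that can also match other transcripts.

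Low values of Ins2 occurred in both states and at each time. Ins2 was below -2, a limit chosen after its values were seen, in 13 of 52 arrays, and the other 39 lay between -1.71 and 0.95. Of the 13 arrays 6 were MycON and 7 MycOFF, 5 had exendin-4 and 8 water, and they numbered 4, 2, 3, 3 and 1 at 4, 8, 16, 32 and 72 h. The 3 lowest were MycOFF water replicate 2 at 32 h (-7.15), MycOFF exendin-4 replicate 1 at 4 h (-6.91) and MycON exendin-4 replicate 1 at 4 h (-6.01). In other replicates of those groups Ins2 was as high as 0.93, 0.95 and 0.60, so arrays of 1 treatment and time differed by more than 6 log2 units. In these 3 arrays, in the same order, Iapp was at -1.94, -1.94 and -1.23 by its widest probe set, 1423510_at, but at -1.82, 0.09 and 0.39 by 1423509_a_at and between -0.10 and 0.20 by the 2 others. Sst, of delta cells, was at -1.83, -2.28 and -0.55, Ppy at -0.47, -1.92 and -1.09, and Gcg at -0.01, -0.61 and -0.47. The mean of 7 beta cell markers was 0.07, 0.54 and -0.17 there.

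Iapp, the other beta cell hormone gene, was also not called for MYC or exendin-4. Its widest probe set, 1423510_at, had a median of 0.42 in MycON arrays (-2.30 to 1.91) and of 0.32 in MycOFF arrays (-1.94 to 1.39), and MYC shifted it by 0.08 ± 0.30 over both injections (95% interval -0.53 to 0.69, adjusted p = 0.879). The exendin-4 difference was 0.55 ± 0.43 in MycON islets and 0.05 ± 0.41 in MycOFF islets, neither past the threshold. Its 3 other probe sets varied less, with interquartile ranges of 0.735 (1423509_a_at), 0.219 (1437323_a_at) and 0.0898 (1456004_x_at, under the filter), against 1.37 for 1423510_at. The probe sets disagreed from array to array: 1423510_at correlated with them at r = 0.31, -0.14 and -0.16 over 52 arrays, whereas 1437323_a_at and 1456004_x_at correlated at r = 0.75. None of the 4 was called for MYC or for exendin-4. The lowest adjusted p of the 3 others was 0.317 for MYC (limma; 1437323_a_at, -0.12 ± 0.07 over both injections) and 0.377 for exendin-4 (1423509_a_at, 0.47 ± 0.22 over both states).

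**Figure D3:**
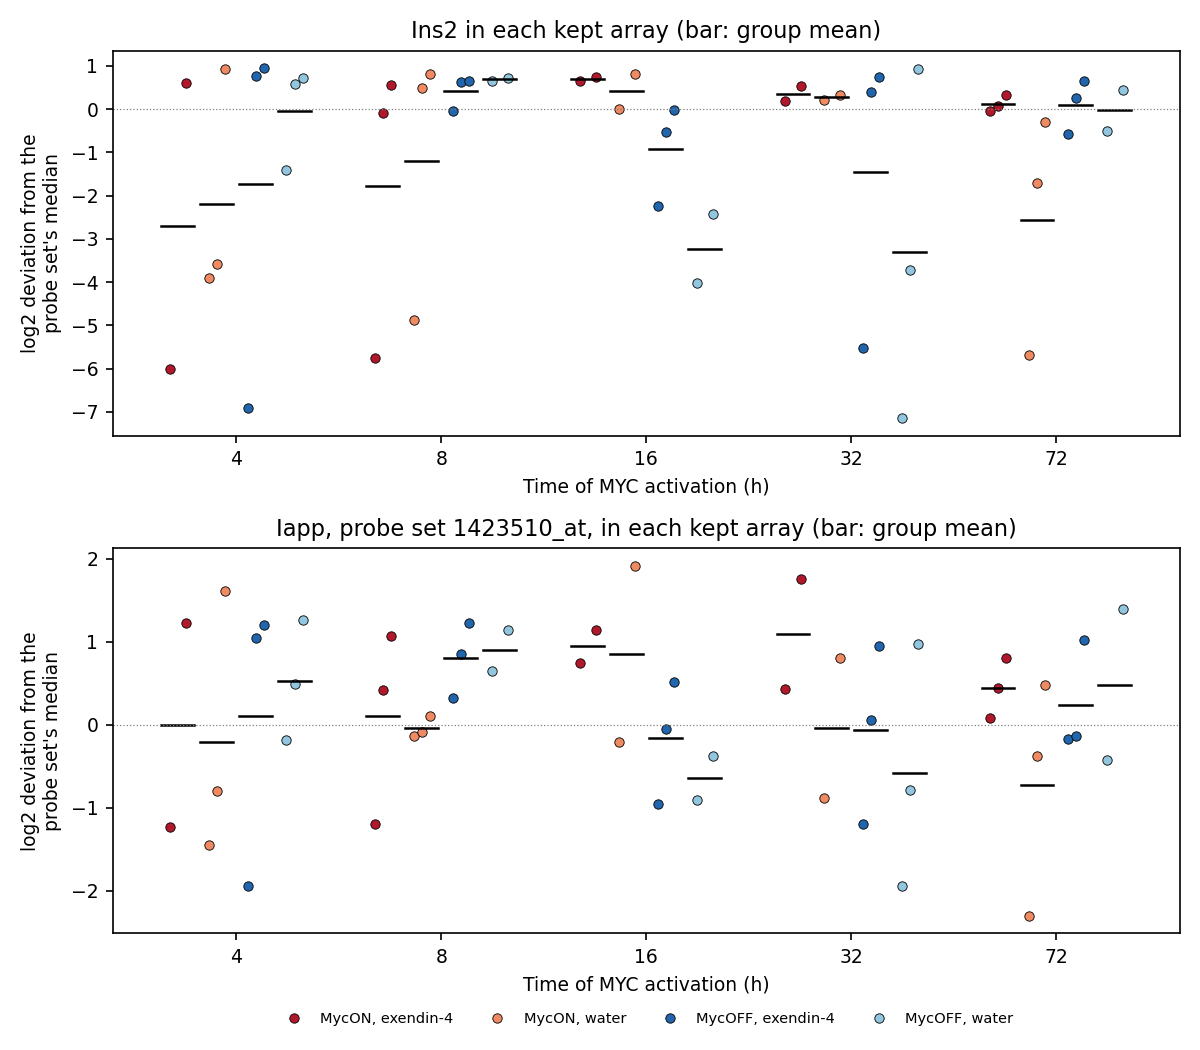
Ins2 (top) and the widest probe set of Iapp (bottom) in each of the 52 kept arrays, as log2 deviation from the probe set's median, against the time of MYC activation in hours; points are arrays, coloured by treatment, and bars are group means. Low Ins2 values, down to -7.15, appear in both MYC states and at each time, and Iapp spans -2.30 to 1.91.

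Ins2 and Iapp, by probe set 1423510_at, moved together across arrays (r = 0.85, rho = 0.84). The adjusted permutation p for r was 2.8e-05 over 28 pairs of members. The coefficient was 0.79 in MycON and 0.91 in MycOFF arrays, and 0.84 for deviations from the group means, that is, between arrays of the same treatment and time. Without the 2 arrays farthest in Ins2 it was 0.81. The gene most like Ins2 was Rps15, a ribosomal protein gene (r = 0.85), followed by Iapp, and those most like Iapp were Ttr, the thyroid hormone carrier transthyretin (r = 0.86), and Atp5g2, a subunit of mitochondrial ATP synthase (r = 0.86). The coefficients of Rps15 with Ins2 and of Atp5g2 with Iapp were thus close to that between the 2 hormones.

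Gcg, the precursor gene of glucagon, differed between times in MycON islets (adjusted p = 0.0348, limma F test), a comparison in which 7.48% of all genes and 1 of 8 members were called. Its values in MycON exendin-4 were -0.47 and 0.21 at 4 h, -0.19, -0.93 and 0.03 at 8 h, 0.35 and -0.30 at 16 h, 0.37 and 0.24 at 32 h, and 0.25, 0.36 and 0.79 at 72 h. In MycON water they were 0.25, -0.26 and 0.06 at 4 h, -0.33, -0.76 and -0.99 at 8 h, -0.08 and 0.14 at 16 h, 0.34 and 0.21 at 32 h, and 0.36, 0.91 and 0.00 at 72 h. The lowest array of each injection was at 8 h, and the means over injections were -0.06, -0.53, 0.03, 0.29 and 0.45 at 4, 8, 16, 32 and 72 h. Every 8 h array was below every 32 h array, and the share of all genes with such a gap was not counted.

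In MycOFF islets Gcg had means of 0.13, -0.04, -0.14, -0.01 and 0.10 at the same times, and a change over time was not called (adjusted p = 1.00) in a comparison with 0.00759% of all genes and 0 of 8 members called. The single MycOFF arrays ran from -0.61 to 0.74 at 4 h and from -1.24 to 0.59 at 8 h, but from -0.01 to 0.21 at 72 h. The difference between the 2 time courses was tested as a change of the MYC effect over time and was not called for Gcg (adjusted p = 0.495, limma, with 1.59% of all genes and 0 of 8 members called). The MYC differences at the 5 times were -0.18, -0.49, 0.17, 0.30 and 0.34, with SEs between 0.24 and 0.27 and none past the threshold. A time course particular to MycON islets was therefore not shown.

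**Figure D4:**
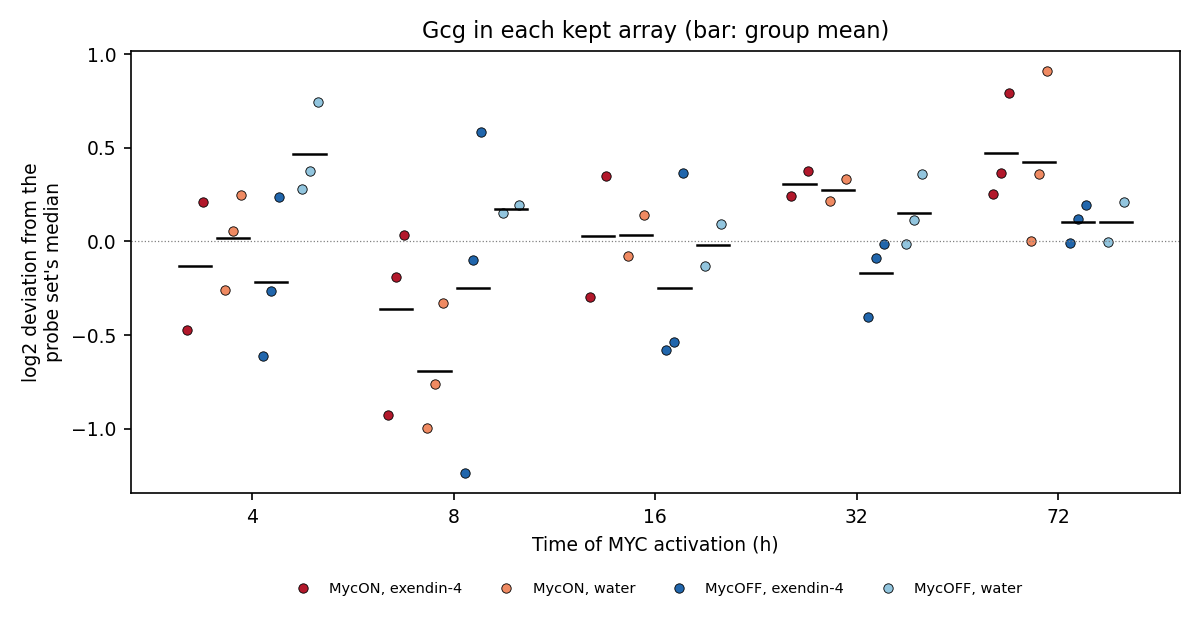
Gcg in each of the 52 kept arrays, as log2 deviation from the probe set's median, against the time of MYC activation in hours; points are arrays, coloured by treatment, and bars are group means. The MycON arrays have their lowest mean at 8 h (arrays -0.99 to 0.03) and their highest at 72 h (0.00 to 0.91), and the MycOFF arrays of different times overlap.

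The call for Gcg rested on few arrays. It was lost without any of 7 MycON arrays, namely exendin-4 replicate 2 at 8 h (adjusted p = 0.125), exendin-4 replicate 1 at 32 h (0.0502) or replicate 3 at 72 h (0.0818), water replicate 2 (0.0746) or 3 (0.0986) at 8 h, and water replicate 1 (0.0643) or 2 (0.0852) at 72 h. Other cell markers changed in the same islets and times. Of 12 macrophage and immune markers 11 were called for a change over time in MycON islets, where 7.48% of all genes were called. Of 5 delta and PP cell markers 2 were called (Rbp4 and Cd9), of 7 beta cell markers 2 and of 6 alpha cell markers 1 (Slc38a5). Of 10 stromal markers 2 were called, of 9 endothelial markers 1, of 17 acinar markers 1 and of 3 duct markers 0. The mean of the macrophage markers ran from -0.83 to 3.30 in MycON arrays (median -0.02) and from -1.60 to 0.73 in MycOFF arrays (median -0.29). Gcg correlated with that mean at r = 0.53 over 52 arrays (rho = 0.62, adjusted permutation p = 0.000457 for r over 64 relations; 0.53 without the 2 farthest arrays), with 0.73 in MycON and 0.28 in MycOFF arrays. For deviations from the group means it was 0.40. Arrays were permuted over all groups, so a time course that both share also lowers this p-value. This relation was not particular to Gcg. With the macrophage mean Pyy correlated at r = 0.61 (0.56 for deviations from the group means), Ppy at 0.45 and Sst at 0.38. None of these 3 was called for a change over time. With the mean of 6 alpha cell markers Gcg correlated at r = 0.64 (rho = 0.59, adjusted permutation p = 0.00016 for r; 0.65 without the 2 farthest arrays), with 0.71 in MycON and 0.58 in MycOFF arrays, and 0.70 for deviations from the group means. With the mean of the delta and PP cell markers it was about as close, at r = 0.61 (rho = 0.66), and 0.48 for deviations from the group means. The part of these markers in the time course of Gcg was not tested.

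Averaged over times, MYC left Gcg within a narrow interval, with a difference of 0.03 ± 0.11 over both injections (95% interval -0.20 to 0.25, adjusted p = 0.892). Exendin-4 shifted it by -0.33 ± 0.15 in MycOFF islets (unadjusted p = 0.0381, adjusted p = 0.604) and by 0.05 ± 0.16 in MycON islets (adjusted p = 0.977). In MycOFF islets it ran from -1.24 to 0.59 with exendin-4 (median -0.09) and from -0.13 to 0.74 with water (median 0.17). Dpp4, the gene next to Gcg in the RefSeq annotation and listed here among alpha cell markers, encodes the protease that inactivates GLP-1, a product of the Gcg precursor. Dpp4 was lower in MycON islets by -0.997 ± 0.207 over both injections (adjusted p = 0.00073, limma). It was the only 1 of 6 tested alpha cell markers called there, where 15.4% of all genes were called. The others lay between -0.46 (Slc7a2) and 0.56 (Slc38a5), and the list median was -0.11, against -0.03 for all genes. The alpha cell list thus did not fall as a whole. Genes most like Gcg were Snx9, a sorting nexin (r = 0.68), and 1700086L19Rik (r = 0.67).

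Sst, Ppy and Pyy, which encode somatostatin, pancreatic polypeptide and peptide YY, were not called in any comparison. Sst had medians of 1.18 in MycON exendin-4 (-1.44 to 3.11), 0.03 in MycON water (-1.54 to 1.60), 0.25 in MycOFF exendin-4 (-2.28 to 3.06) and 0.31 in MycOFF water (-1.83 to 2.68). Ppy had medians of 0.69 in MycON exendin-4 (-1.28 to 2.19), -0.19 in MycON water (-1.67 to 1.07), 0.26 in MycOFF exendin-4 (-1.92 to 1.17) and 0.34 in MycOFF water (-1.03 to 1.72). Pyy had medians of 0.38 in MycON exendin-4 (-1.10 to 2.18), -0.37 in MycON water (-1.11 to 1.47), 0.01 in MycOFF exendin-4 (-1.45 to 1.18) and 0.17 in MycOFF water (-0.37 to 1.34). For each of the 3 genes the median was highest in MycON exendin-4 and lowest in MycON water, and all 4 ranges overlapped.

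The MYC difference of these genes had opposite signs under the 2 injections. With exendin-4 it was 0.82 ± 0.60 for Sst, 0.57 ± 0.37 for Ppy and 0.56 ± 0.33 for Pyy, and with water it was -0.48 ± 0.63, -0.59 ± 0.39 and -0.42 ± 0.34. The interaction was 1.30 ± 0.87 for Sst (unadjusted p = 0.143), 1.16 ± 0.54 for Ppy (unadjusted p = 0.0382) and 0.98 ± 0.47 for Pyy (unadjusted p = 0.0441), each with an adjusted p of 1.00 in limma. With the 8 arrays that the submitters left out added, these interactions turned sign, to -0.90 for Sst, -1.25 for Ppy and -0.95 for Pyy, as did the MYC differences of all 3 genes under both injections. In those 8 arrays the mean of the beta cell markers ran from -5.87 to -0.99, against -1.24 to 1.36 in kept MycOFF and -1.12 to 1.06 in kept MycON arrays. Their mean of stromal markers reached 5.48, against at most 3.16 in kept arrays. The part of this in the change of sign was not tested. The interaction called 0% of all genes, and 250 of the 13176 (1.9%) had an unadjusted p under 0.05. Exendin-4 shifted Ppy by 0.87 ± 0.39 in MycON islets (unadjusted p = 0.0316, adjusted p = 0.691) and by -0.29 ± 0.37 in MycOFF islets.

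The 3 genes moved together from array to array. Sst and Pyy correlated at r = 0.82 (rho = 0.82), Ppy and Pyy at r = 0.81 (rho = 0.77) and Sst and Ppy at r = 0.70 (rho = 0.71), each with an adjusted permutation p for r of 2.8e-05 over 28 pairs. Within MycON arrays these coefficients were 0.84, 0.87 and 0.70, and within MycOFF arrays 0.84, 0.72 and 0.72. Without the 2 arrays farthest in the first gene they were 0.80, 0.77 and 0.69. Ppy and Pyy encode peptides of the same family and are neighbouring genes in the RefSeq annotation. The genes most like Sst were Pyy and Mrpl54, a mitochondrial ribosomal protein gene (r = 0.82), and those most like Ppy were Pyy and Ndufa6, a subunit of respiratory complex I (r = 0.75). For Pyy they were Sst and Ppy themselves.

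**Figure D5:**
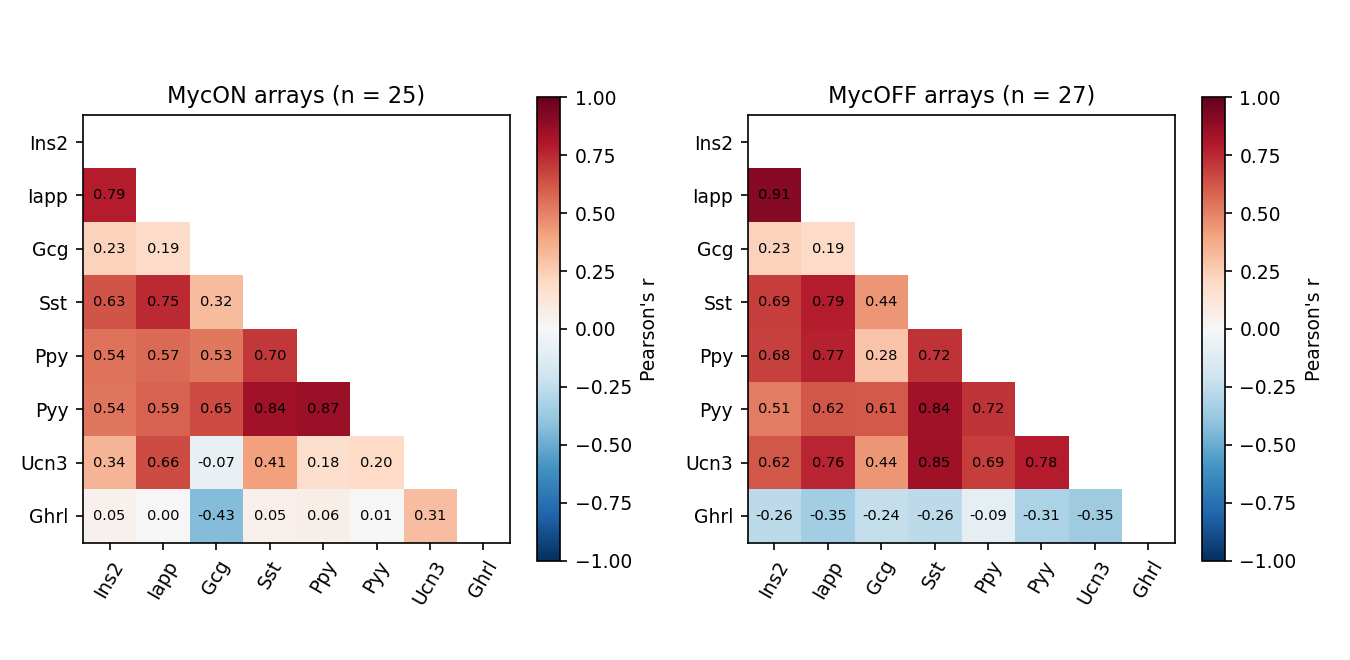
Pearson's r between each pair of members across arrays (colour scale from -1 to 1, values printed in the cells), for the 25 MycON arrays on the left and the 27 MycOFF arrays on the right. Ucn3 correlates with Sst, Ppy and Pyy at 0.69 to 0.85 in MycOFF arrays and at 0.18 to 0.41 in MycON arrays. Iapp is represented by probe set 1423510_at.

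Ucn3 correlated less in value with Sst, Pyy, Ppy and Gcg in MycON than in MycOFF arrays. Ucn3 and Sst correlated at r = 0.41 in MycON and 0.85 in MycOFF arrays, Ucn3 and Pyy at 0.20 and 0.78, Ucn3 and Ppy at 0.18 and 0.69, and Ucn3 and Gcg at -0.07 and 0.44. With Iapp (1423510_at), made in the same cells, the values were 0.66 and 0.76. The difference between the states was not tested. For deviations from the group means, over both states, Ucn3 correlated at 0.77 with Sst, 0.65 with Pyy and 0.56 with Ppy. With Gcg that value was 0.30 and with Iapp 0.80. Coefficients within a state also hold differences between times and injections. A looser relation between arrays of the same treatment and time was therefore not shown. Pooled over the 52 arrays, Ucn3 correlated with Iapp at r = 0.57 (rho = 0.62, adjusted permutation p = 7.64e-05 for r; 0.56 without the 2 farthest arrays) and with Sst at r = 0.53 (rho = 0.54, adjusted permutation p = 0.000187 for r; 0.61 without them). Gcg stood apart from the beta cell hormones, with r = 0.23 to Ins2 (adjusted permutation p = 0.14) and r = 0.19 to Iapp (adjusted permutation p = 0.239).

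Ghrl encodes ghrelin, the product of the rare epsilon cells of the islet. It hardly varied, from -0.06 to 0.34 in MycON arrays (median 0.00) and from -0.04 to 0.26 in MycOFF arrays (median 0.01), and its interquartile range of 0.113 was just past the filter limit of 0.101. MYC shifted it by -0.02 ± 0.04 over both injections (95% interval -0.11 to 0.07) and exendin-4 by -0.01 ± 0.04 over both states. Whether a flat profile reflects a steady level or a signal near background cannot be read from centred values. The genes most like Ghrl were Cecr2, a chromatin remodelling factor (r = 0.72), and Ttc30a2, a gene of ciliary transport (r = 0.69).

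Exendin-4 called none of the 8 members (limma), and at an unadjusted p under 0.05 it reached 1 in MycON islets (Ppy), 1 in MycOFF islets (Gcg) and 0 over both MYC states. At that unadjusted threshold stood 6.69%, 7.66% and 12.4% of all genes, so the members' counts were near the background. After adjustment exendin-4 called 0.0683% of all genes in MycON islets, 0.228% in MycOFF islets and 1.32% over both states. The median difference of the 8 members was 0.47 in MycON islets and -0.24 in MycOFF islets, against 0.01 and -0.02 for all genes tested.

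At single times no member was called either. With both injections averaged, MYC called 2.29%, 3.93%, 2.28%, 3.31% and 1.38% of all genes at 4, 8, 16, 32 and 72 h. With exendin-4 alone it called 0.19%, 1.36%, 0.0835%, 0.326% and 1%, and with water alone 0.751%, 0.25%, 0.342%, 0.478% and 0.0228%. Exendin-4, with both MYC states averaged, called 0.0835%, 0.0683%, 0.0304%, 0% and 0.0455%. Of the members, Gcg at 4 h over both MYC states had the lowest adjusted p for exendin-4 (-0.41 ± 0.24, adjusted p = 0.459, limma). The largest difference in value between MYC states other than those of Ucn3 and Ins2 was that of Ppy with exendin-4 at 32 h, at 1.93 ± 0.87 (adjusted p = 0.574). Its values there were 1.94 and 1.01 in MycON exendin-4, against -0.94, -0.68 and 0.26 in MycOFF exendin-4. This difference was picked for its size, and so few arrays can separate without an effect.

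Of 15 listed genes for proteins that process the precursors and form the granules 14 were tested. None was called for MYC over both injections, exendin-4 over both states or time in MycON islets, where 15.4%, 1.32% and 7.48% of all genes were called. Their median difference for MYC over both injections was -0.20, against -0.03 for all genes. Scg3, a granin that sorts hormones into granules, was at -0.27 ± 0.10 (adjusted p = 0.0724) and Vgf, a granule peptide precursor, at -0.42 ± 0.22 (adjusted p = 0.212). The convertase gene Pcsk1 was at -0.09 ± 0.24, and Cpe, the carboxypeptidase that trims the cut peptides, at -0.14 ± 0.09.

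Of 17 transcription factors of the hormone genes 11 were tested. Pdx1, which activates the insulin and Iapp genes, fell with MYC with water (-0.90 ± 0.19, adjusted p = 0.00326) and over both injections (value above), and differed between times in MycON islets (adjusted p = 0.0112). In each of these comparisons 1 of the 11 was called, and of all genes 5.59%, 15.4% and 7.48% in the same order. With exendin-4 over both MYC states Neurod1, an E-box factor of the insulin gene (-0.49 ± 0.11, adjusted p = 0.0151), and Pax6, a homeodomain factor of the glucagon and insulin genes (-0.79 ± 0.20, adjusted p = 0.0330), were lower, while Ins2 and Gcg, 2 of their known targets, were at 0.43 ± 0.69 and -0.14 ± 0.11. For exendin-4 over both states 2 of the 11 and 1.32% of all genes were called. The median of the 11 was -0.21 for MYC over both injections and -0.31 for exendin-4 over both states, against -0.03 and 0.00 for all genes.

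Of 18 receptors for the members' peptides and for incretins 11 were tested, and 1 fell with MYC over both injections: Insr, the insulin receptor (-0.50 ± 0.15, adjusted p = 0.0214, limma). That comparison called 15.4% of all genes, so the count of receptors was not above the background. Crhr2, the receptor for urocortin 3, was at -0.10 ± 0.08, Sstr3, a somatostatin receptor, at -0.29 ± 0.25, and Gcgr, the glucagon receptor, at -0.14 ± 0.16, none past the threshold. No receptor was called for exendin-4. Of 12 other islet neuropeptide genes 5 were tested, and 1 of them, Tac1, the precursor of substance P, differed between times in MycON islets (adjusted p = 0.00087, limma F test). Of all genes 7.48% were called there.

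Markers of other cells moved with MYC beside the fall of Ucn3. Of 12 macrophage and immune markers 7 rose over both injections, among them Cd68 (2.06 ± 0.27), Lyz2 (1.47 ± 0.32), C1qc (1.14 ± 0.23) and Tyrobp (1.08 ± 0.24). Of 9 endothelial markers 2 fell, the VEGF receptor genes Kdr (-0.85 ± 0.20) and Flt1 (-0.73 ± 0.25), in a comparison that called 15.4% of all genes. Vwf, of the same list, was at 0.43 ± 0.19 over both injections (adjusted p = 0.139) and rose with MYC under exendin-4 (1.10 ± 0.27, adjusted p = 0.00977, limma), and the list median was -0.07 over both injections, against -0.03 for all genes. Of 17 acinar markers 1 rose, Klk1 (0.71 ± 0.10), while the list median was 0.40, and the mean of the list ran from -1.12 to 2.84 in MycON arrays and from -1.28 to 2.95 in MycOFF arrays. None of 10 stromal, 5 delta and PP or 3 duct markers was called for MYC. Ucn3 correlated with the mean of the endothelial markers at r = 0.40 over 52 arrays (rho = 0.33, adjusted permutation p = 0.014 for r). The coefficient was 0.38 without the 2 farthest arrays and 0.52 for deviations from the group means. It was -0.06 over the MycON arrays and 0.58 over the MycOFF arrays, a difference that was not tested. With the mean of the stromal markers Ucn3 correlated at r = -0.38 (rho = -0.36, adjusted permutation p = 0.0203 for r). That coefficient was -0.34 without the 2 farthest arrays, -0.34 in MycON and -0.41 in MycOFF arrays. The part of these cells in the values of the members was not tested.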

How the data were processed

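Labelled RNA of laser-captured islets was measured on 60 Affymetrix arrays. The deposited log2 values of 45101 probe sets were centred by the authors: the median over 60 arrays was 0 for 100% of probe sets (tolerance 1e-04). The base was inferred, as values ran from -12.3 to 12.8 and natural logs of 16-bit intensities reach 11.1. Per the submitters' processing notes MAS5 and GCRMA were used, with no role or version, and what else was done is not given in the sources used here. Per the labels' protocols 6 µg of RNA were labelled per array. The submitters left out 8 arrays.

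Control probe sets (64) and those under the 40th percentile of the interquartile range over 52 arrays (0.101) were dropped, and 27022 remained. By the platform annotation 34945 probe sets had 1 symbol, 932 had several and 9160 had none. Each gene was represented by its probe set of widest range. In limma 3.58.1 (R 4.3.3, with data.table, version 1.17.8) 20 group means were fitted to the values as deposited, with all groups sharing 1 estimate of the spread (32 residual and 2.75 prior degrees of freedom), contrasts averaged the 5 times, and p-values were adjusted over 13176 genes (Benjamini-Hochberg, 0.05). Correlations used 100000 permutations of arrays (Python 3.11.15, numpy 2.4.6, scipy 1.17.1, pandas 2.3.3, matplotlib 3.10.9). The permutations ran over all groups, so differences between groups that 2 series share enter these p-values. On simulated data for the MYC effect over both injections (13176 genes) 93 of 100 changes of 1 log2 unit and 99 of 100 of 2 log2 units were recovered, with 11 false calls. The simulated noise was normal and independent between genes and arrays, and the changed genes were drawn at random. The recovered shares thus do not hold for members of wide spread, such as Ins2 (SE 0.69). The number of arrays limits the precision.

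The members and gene lists were chosen with earlier results of these data known. Some lists share genes (Pdx1, Slc30a8). Genes named are the members, for each the 2 genes most correlated with it, and called list genes (at most 4 a list and comparison, by p); uncalled list genes and neighbouring genes on the chromosome were added after their values were seen. RefSeq (GRCm38.p6) gave promoters and gene neighbours. Alternatives were all 60 arrays, only the arrays compared, the replicate number as a block, quantile normalization, no filter, the mean over probe sets, array weights and leaving out each array. The replicate numbers did not pair arrays: deviations of same-numbered arrays had a median correlation of 0.0049 over 425 pairs.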

Additional observations from a re-analysis of the deposited data

Results flagged for a closer look

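The 8 arrays the submitters left out held 4 probe sets above every kept MycOFF water array, all in MycON water replicate 1 at 32 h. Iapp was at 0.822 there by 1423509_a_at (highest of 12 MycOFF water arrays 0.574), at 0.579 by 1437323_a_at (0.436) and at 0.425 by 1456004_x_at (0.373). Ghrl was at 0.276 (0.262). Each of the 4 was below the highest kept array of any group. In the same 8 arrays Gcg lay between -12.3 and -1.27 and Ucn3 between -3.08 and -2.48, and for both genes all 8 were below every kept array.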

How the results depend on the processing

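The number of members called for MYC with water, 1 in the analysis above, was 0 with all 60 arrays, with only the arrays compared, with the replicate block and without the filter on spread. The values of Ucn3 there are given above; in the replicate block it was -1.54. For MYC with exendin-4 the number was 1 rather than 0 with all 60 arrays and with array weights (Ucn3 at -1.96 and -1.61). For time in MycON islets it was 0 with all 60 arrays (Gcg adjusted p = 0.538). For MYC at single times it was 3 rather than 0 with array weights (Ppy and Ucn3 at 4 h with water, Ucn3 at 8 h over both injections). Leaving out 1 array gave 0 to 1 members called in each of these 4 comparisons, the last through MycOFF exendin-4 replicate 2 or MycOFF water replicate 3 at 72 h. Where this left 1 array in a group, it was assumed to vary like the others. With all 60 arrays, 33 uncalled values turned sign, 17 of them within 1 SE of 0 in the analysis above. The other 16 were Gcg 0.41, Ppy 0.35 and Pyy 0.28 for MYC with water; Gcg -1.58, Sst -0.60, Ppy -0.90 and Pyy -0.67 for MYC with exendin-4; Gcg 1.14 and Pyy 0.88 for exendin-4 in MycOFF, Iapp -0.39 and Pyy -0.072 in MycON, and Gcg 0.14 in both states; and Gcg -1.99, Sst -0.90, Ppy -1.25 and Pyy -0.95 for the interaction. The cause was not tested. Values within 1 SE of 0 also changed sign in other alternatives, 10 with quantile normalization, 7 with array weights, 2 in the replicate block, 1 with the mean over probe sets and 102 of 4160 on leaving out 1 array. In the replicate block no other call changed, and 20 of 52 arrays correlated best with arrays of their own number. The other probe sets of Iapp, added after seeing the data, changed no call.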
